A study of Drosophila melanogaster with 12 samples.

Results

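The genes described here are the nuclear genes of mitochondrial respiratory complexes II, III, IV and V and of cytochrome c, followed in the RNA of whole female flies. Members were all rows of the table whose symbol starts with Sdh, with UQCR-, with COX and a digit or with ATPsyn, together with RFeSP, Cyt-c1, Cyt-c-p and blw. This rule found 45 of 17714 gene rows. Of these, 33 are the main set, with 4 subunits of complex II, 1 assembly factor of that complex, 8 subunits of complex III, 1 cytochrome c, 7 subunits of complex IV and 12 of complex V. The other 12 are paralogs whose symbol ends in L, and they are given apart because 3 of the young libraries also held transcripts of male flies. Poly(A) RNA had been sequenced from wild type females (labelled wOB) and from females mutant for Ptth (labelled ptth120BC2), at 1 and 5 weeks of age per the design text, called young and old below. Ptth encodes the prothoracicotropic hormone, a brain peptide that times metamorphosis by driving ecdysteroid synthesis in the larva. Each of the 4 groups had 3 libraries, and each library pooled about 15 whole flies. The paper gives the strain, the allele and the ages in other terms, and the groups here follow the labels.

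Oxidative phosphorylation passes electrons from NADH and succinate along the inner mitochondrial membrane to oxygen, and uses the proton gradient built on the way to make ATP. Complex II takes electrons from succinate, complex III passes them from ubiquinol to cytochrome c, complex IV hands them to oxygen, and complex V is the ATP synthase. Complex II is made from nuclear genes alone, whereas the others also carry subunits from the mitochondrial genome, and flight muscle is among the fly tissues richest in these complexes.

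All values below are normalised counts, that is, reads per gene divided by a size factor for the library. Changes are differences of log2(normalised count + 1) with their standard error (SE) from a limma model of the 4 groups, and p-values were adjusted over the 11403 genes with a count of at least 10 in at least 3 libraries. Depth lay between 16448805 and 28206866 reads. The male tract list, 30 of whose 33 genes were found, summed to 7465 and 23320 in wild type young replicates 1 and 2 and to 9766 in Ptth mutant young replicate 1, against 32.5 to 76.7 in the other 9 libraries. Its gene Acp95EF was at 0 throughout. The male dosage compensation RNA roX1 followed the same split, at 502.2 to 1968 in those 3 libraries and 31.5 to 179 elsewhere. Ptth itself ranged from 25.5 to 39.9 in wild type and 18.5 to 28.3 in mutants when young, and from 75.3 to 76.8 and 43.6 to 58.6 when old. The labels do not say what the lesion is, so these levels are no firm check of the genotypes. A whole-body level mixes tissues, and fewer cells of a type and less RNA per cell cannot be told apart in it.

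Of the 33 genes, 32 passed the filter on low values, and UQCR-14 was at 0 in all 12 libraries. Levels were compared between genes per kilobase of exon, as means over the 12 libraries. Complex V held the most abundant transcripts. ATPsynC, the subunit that forms the rotating ring of the membrane part, led with 18400 normalised counts per kilobase. The catalytic head of the enzyme followed, with ATPsynbeta and blw, its beta and alpha subunits, at 15200 per kilobase each. The ratio of beta to alpha per kilobase was 0.962 to 1.21 in the 6 young libraries and 0.874 to 0.963 in the 6 old ones, ranges that met at their ends. Cyt-c-p, the electron carrier between complexes III and IV, stood at 9960 per kilobase, and COX5A, a supernumerary subunit, led complex IV with 9650. UQCR-C1, a core protein of complex III, reached 7680. Complex II was lower, led by its iron-sulphur subunit SdhB with 3860 per kilobase. At the low end were ATPsyndelta, a subunit of the central stalk, with 1460, UQCR-11, a small subunit of complex III, with 1120, and the assembly factor Sdhaf3 with 447 per kilobase. Lengths joined the exons of all annotated transcripts of a gene, so the order by count differs. By mean count ATPsyndelta, at 5560, was close to ATPsynD at 5518. UQCR-11 had a mean count of 1807, above the 1502 of UQCR-6.4, which stood at 2680 per kilobase. Exon bases that overlap genes on the other strand were counted in these lengths, and ATPsyndelta has 1358 of its 3817 in such an overlap.

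**Figure D1:**
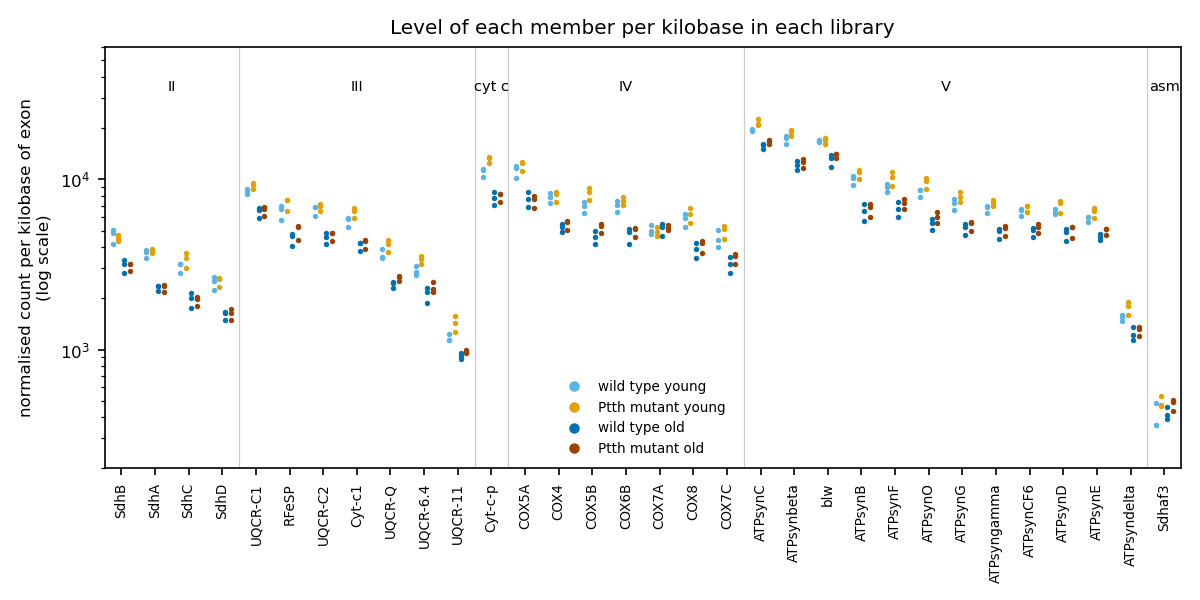
Each point is the level of a gene in 1 library, in normalised counts per kilobase of exon on a log axis, for the 32 members above 0 ordered by complex (asm, assembly factor) and coloured by group. ATPsynC is highest at a mean of 18400 per kilobase and Sdhaf3 lowest at 447, and for most genes the old libraries lie below the young ones, while those of COX7A lie among them.

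The largest contrast in these genes was between ages. The 33 genes together took 1.26 to 1.41% of all counts in the 6 young libraries and 0.925 to 1.01% in the 6 old ones, so the ages did not overlap. In wild type 30 of 32 genes fell with age at an adjusted p under 0.05, where 5.73% of all tested genes did. In Ptth mutants 30 of 32 fell, against 3.35% of all tested genes, and the 30 genes were the same in both genotypes. The median change of the 32 genes was -0.50 in wild type and -0.55 in mutants on the log2 scale, beside medians of 0.03 and -0.02 over all tested genes. In each genotype the 3 young and the 3 old libraries did not overlap for 30 of 32 genes, which was true of 11.6% of all genes in wild type and 11.5% in mutants in that direction. Under the study's threshold for age, an adjusted p under 0.05 with a change over 2-fold, 0 of 32 were called in either genotype, where 3.05 and 1.81% of all genes were. limma, edgeR and DESeq2 each gave 30 genes at an adjusted p under 0.05, 30 at an unadjusted p under 0.05 and 0 under the fold threshold in both genotypes.

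Genes of the set moved together between libraries of a group, so the 30 falls are not 30 independent measurements. In young wild type, replicate 3 was the lowest library for 29 of 32 genes. In young mutants it was replicate 2, for 30 genes. In the old groups, wild type replicate 2 and mutant replicate 3 were lowest for 31 genes each. The plot of the members in each library shows these shifts, with library medians from 0.12 to 0.41 above each gene's mean in young flies and from 0.16 to 0.42 below it in old flies.

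**Figure D2:**
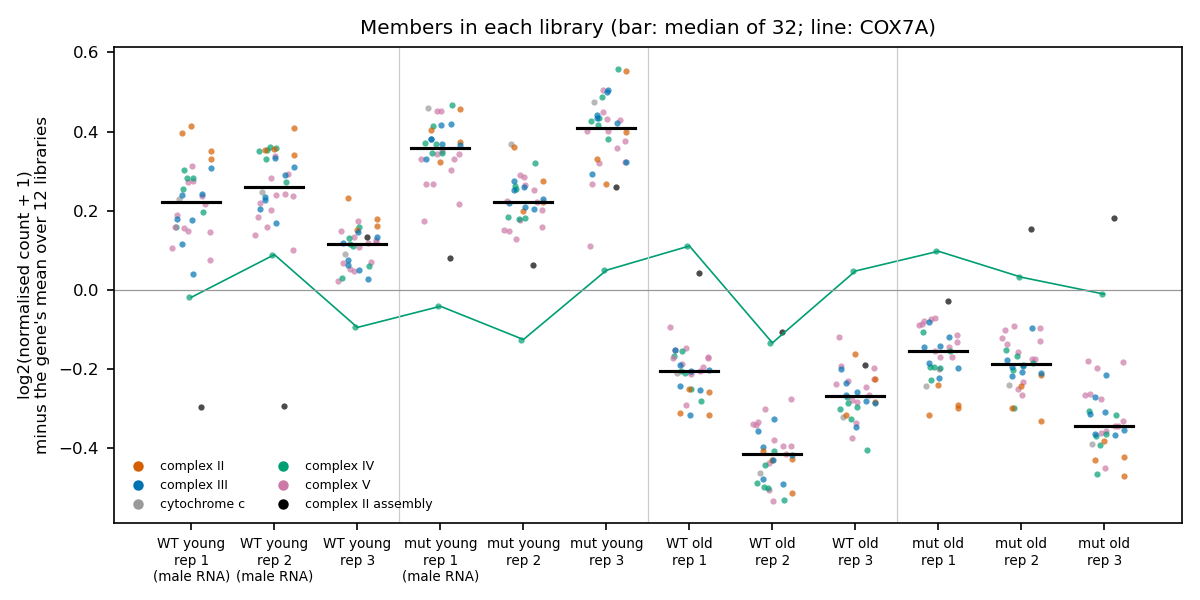
Each point is 1 of 32 genes in 1 library, as log2(normalised count + 1) minus the mean of that gene over the 12 libraries, coloured by complex, with a bar at the median and a line through COX7A. Medians are 0.117 to 0.410 in the 6 young libraries and -0.155 to -0.416 in the 6 old ones, while the line of COX7A shows no such step.

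The libraries with male transcripts bore on the wild type comparison. Without the 3 of them, with a single young wild type library remaining and its spread borrowed from the other groups, the median change in wild type was -0.39, and 9 of 32 genes passed an adjusted p under 0.05 (2.03% of 10305 genes tested), with 31 of 32 values below 0. Those 9 were SdhA, SdhB, SdhC, SdhD, UQCR-C2, UQCR-Q, COX4, ATPsynB and ATPsynO. In mutants, where 1 young library was left out, 29 of 32 fell (3.6% of genes) with a median of -0.54. Wild type young replicate 3, the library that stayed, was also the lowest of the 3 for most members.

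Muscle transcripts moved with age as well. The 30 muscle genes, all of them found, summed to 272700 to 367000 normalised counts in wild type and 257600 to 284000 in mutants when young, and to 121800 to 154000 and 135300 to 147600 when old. Their median change was -1.37 in wild type and -0.93 in mutants, larger than that of the respiratory genes. Without the male-transcript libraries it was -1.07 in wild type and -0.88 in mutants. Within groups, the lowest muscle sum fell on the same library as the lowest respiratory median in young wild type, young mutants and old wild type. In old mutants it fell on another. The highest muscle sum and the highest respiratory median shared a library in young wild type only. The ovary germline list, with 20 of 22 genes found and cup at 0, summed to 102800 to 143600 in young and 109500 to 132300 in old libraries. The photoreceptor and neuron list, with all 23 found and ninaA at 0, spanned 64810 to 90060 and 64630 to 85330. The sums of these lists overlapped between ages in both genotypes. Still, 13 of 22 tested photoreceptor and neuron genes lay apart and lower in old mutants (11.5% of all genes) and 8 in old wild type (11.6%). The median change of the photoreceptor and neuron list was -0.26 in wild type and -0.24 in mutants. Without the male-transcript libraries it was -0.06 and -0.20. The yolk and eggshell list, with 16 of 17 found, overlapped in wild type, at 525700 to 819500 in young and 495600 to 655400 in old flies, but not in mutants, at 550300 to 612100 and 696000 to 896400. In mutants all 16 of its genes had values above 0 with age, with a median of 0.39, and 6 did not overlap (13.2% of all genes), but limma called 0 at an adjusted p under 0.05, and 4 had an unadjusted p under 0.05. The part that any of the 4 lists had in the change of the respiratory genes was not tested.

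Complex II, the succinate dehydrogenase that also serves the citric acid cycle, showed the largest median fall, -0.63 in wild type and -0.68 in mutants. All 4 subunits fell in both genotypes. The 3 values of a group are given in the order of replicates 1 to 3 here and below. SdhA (chromosome 2R, 19391863 to 19395971 of the BDGP6.54 annotation), the flavoprotein that oxidises succinate, had 10591, 10295 and 9454 in young wild type and 6489, 6071 and 6469 in old wild type. In mutants SdhA went from 10664, 10344 and 10130 to 6470, 6544 and 5978. Both age ranges lay well apart. The wild type change was -0.67 ± 0.06, adjusted p = 4.8e-05, and that of mutants -0.71 ± 0.06, adjusted p = 3.9e-05, with the smallest adjusted p of any member. SdhC (chromosome 3R, 11208887 to 11209849), a membrane anchor, fell further in mutants than any other member. Its counts were 3111, 2747 and 3330 in young and 1844, 1804 and 1637 in old mutants (-0.80 ± 0.09, adjusted p = 3.7e-04). In wild type they were 2891, 2871 and 2568 and 1822, 1589 and 1938 (-0.64 ± 0.09, adjusted p = 0.0013). The ages did not overlap in either genotype. SdhB (chromosome 2R, 6807626 to 6809172), which carries the iron-sulphur clusters, had 6139, 5901 and 5114 in young and 3870, 3418 and 4120 in old wild type (-0.59 ± 0.09, adjusted p = 0.0013). In mutants it had 5762, 5289 and 5543 and 3897, 3896 and 3538 (-0.55 ± 0.09, adjusted p = 0.0025), again with no overlap. The other anchor, SdhD, fell by 0.62 in wild type and 0.64 in mutants on the log2 scale.

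Sdhaf3, which helps mature the iron-sulphur subunit of complex II, did not pass the test in either genotype. This gene (chromosome 3R, 16481861 to 16482452) had 169.6, 169.9 and 229 in young and 215, 194 and 183 in old wild type, and 221, 218 and 250.0 in young and 205, 232 and 237 in old mutants. The ages overlapped in both genotypes. Its change with age was 0.07 ± 0.13, adjusted p = 0.75 in wild type (95% interval -0.21 to 0.35) and -0.03 ± 0.13, adjusted p = 0.94 in mutants (-0.32 to 0.25). The lower values in young wild type were those of the 2 libraries with male transcripts, and without the 3 such libraries the wild type value was -0.22 (adjusted p = 0.54).

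Complex III fell in 7 of 7 tested subunits in both genotypes, with changes of -33.3 to -21.5% in wild type and -35.7 to -28.9% in mutants and log2 medians of -0.47 and -0.55. UQCR-C1 (chromosome 3R, 14890231 to 14892387), a core protein on the matrix side, had 14001, 14252 and 13416 in young and 11124, 9653 and 10757 in old wild type (-0.40 ± 0.07, adjusted p = 0.0036). In mutants it had 15547, 14384 and 15149 and 11193, 10930 and 9945 (-0.49 ± 0.07, adjusted p = 0.0012). Neither pair of groups overlapped. RFeSP (chromosome 2L, 1612429 to 1614160), the Rieske iron-sulphur protein that takes electrons from ubiquinol, went from 7516, 7760 and 6473 to 5329, 4521 and 5225 in wild type (-0.53 ± 0.10, adjusted p = 0.0073) and from 8485, 7319 and 8504 to 5845, 5944 and 4925 in mutants (-0.54 ± 0.10, adjusted p = 0.0077). Here too the old libraries all lay below the young ones. Of the small subunits, UQCR-11 (chromosome 3L, 25120709 to 25126171) had the smallest fall of the complex in wild type. Its counts there were 1829, 1998 and 1841 and 1542, 1417 and 1487 (-0.35 ± 0.08, adjusted p = 0.014), and in mutants 2294, 2055 and 2523 and 1610, 1555 and 1531 (-0.54 ± 0.08, adjusted p = 0.0012). The ages stayed apart in both. Cyt-c1, the haem protein that reduces cytochrome c, fell by 0.47 and 0.61, the core protein UQCR-C2 by 0.55 and 0.56, UQCR-Q by 0.58 and 0.64 and UQCR-6.4 by 0.45 and 0.55 on the log2 scale in wild type and mutants.

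Cyt-c-p (chromosome 2L, 16719932 to 16722644), the somatic cytochrome c, had the second largest fall in mutants. There its counts were 9078, 8524 and 9174 in young and 5580, 5590 and 5041 in old flies (-0.72 ± 0.08, adjusted p = 1.7e-04). In wild type they were 7737, 7839 and 7027 and 5712, 4788 and 5280 (-0.52 ± 0.08, adjusted p = 0.0013). Young and old libraries did not overlap in either genotype.

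Complex IV, cytochrome c oxidase, split into 6 subunits that fell in both genotypes and COX7A, which did not. COX5A (chromosome 3R, 11819359 to 11820299), a subunit on the matrix side, had 9238, 9556 and 8107 in young and 6724, 5505 and 6133 in old wild type (-0.55 ± 0.09, adjusted p = 0.0035). In mutants it had 9976, 8927 and 10109 and 6388, 6085 and 5419 (-0.70 ± 0.09, adjusted p = 9.7e-04). COX5B (chromosome 2L, 6557800 to 6559308), a zinc-binding subunit, went from 5058, 5334 and 4605 to 3633, 3057 and 3337 in wild type (-0.58 ± 0.09, adjusted p = 0.0014) and from 6105, 5513 and 6508 to 3966, 3886 and 3546 in mutants (-0.67 ± 0.09, adjusted p = 7.8e-04). For both genes every old library lay below every young library of its genotype. COX8 (chromosome 3L, 21538859 to 21539447), a small membrane subunit, was at 3042, 3210 and 2699 in young and 2159, 1767 and 1994 in old wild type (-0.60 ± 0.10, adjusted p = 0.004), and at 3227, 2828 and 3505 and 2182, 2227 and 1906 in mutants (-0.60 ± 0.10, adjusted p = 0.0048). The fall of COX8 was almost equal in the genotypes. COX4, COX6B and COX7C fell by 0.58, 0.56 and 0.50 in wild type and by 0.55, 0.60 and 0.52 in mutants on the log2 scale.

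COX7A (chromosome 3R, 8339944 to 8341043), a supernumerary subunit of complex IV, was the exception. It had 3486, 3757 and 3307 in young and 3814, 3219 and 3650 in old wild type, and 3432, 3237 and 3655 in young and 3779, 3611 and 3505 in old mutants. All 4 groups overlapped. The change with age was 0.02 ± 0.08, adjusted p = 0.91 in wild type (95% interval -0.15 to 0.19) and 0.08 ± 0.08, adjusted p = 0.77 in mutants (-0.09 to 0.25), and neither interval reaches the value of any other complex IV subunit. Among the 7 complex IV genes, COX7A made up 9.3 to 10.7% of the summed count per kilobase in the 6 young libraries and 14.1 to 15.1% in the 6 old ones. This share is a description and was not tested. COX7A and Sdhaf3 had the highest age values of the 32 genes under every alternative scaling, filter, tool and left-out library, in both genotypes.

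Complex V fell in 12 of 12 subunits in both genotypes, with changes of -35.6 to -19.5% in wild type and of -38.3 to -18.3% in mutants. Its log2 medians, -0.43 and -0.49, were the smallest of the complexes. The stalk subunit ATPsynB (chromosome 3L, 9729999 to 9731224), part of the stator that holds the head still, fell most in wild type, from 9389, 9566 and 8527 to 6552, 5221 and 5985 (-0.63 ± 0.09, adjusted p = 0.0013). In mutants it fell from 10351, 9217 and 10192 to 6584, 6285 and 5531 (-0.70 ± 0.09, adjusted p = 9.7e-04). Both pairs of groups stood apart. ATPsynC (chromosome 3R, 31216145 to 31219630), the most abundant member, fell less. Its counts were 35898, 36486 and 37188 and 30205, 28104 and 29684 in wild type (-0.32 ± 0.06, adjusted p = 0.0055), and 39553, 39141 and 42581 and 31457, 31861 and 30022 in mutants (-0.38 ± 0.06, adjusted p = 0.0022). The ages did not overlap for ATPsynC either. ATPsynE (chromosome 3R, 14326947 to 14327735), a membrane subunit, was at 4338, 4346 and 4043 in young and 3424, 3160 and 3319 in old wild type (-0.36 ± 0.07, adjusted p = 0.0054), and at 4688, 4261 and 4867 and 3700, 3654 and 3395 in mutants (-0.36 ± 0.07, adjusted p = 0.0067).

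The alpha subunit blw (chromosome 2R, 22799099 to 22802180) had the smallest fall of the enzyme in mutants. Its counts were 38244, 39609 and 36577 in young and 31933, 31567 and 29936 in old mutants (-0.29 ± 0.07, adjusted p = 0.023), and 37849, 38489 and 37560 and 30061, 26752 and 31198 in wild type (-0.38 ± 0.07, adjusted p = 0.0046). The ages did not overlap, but the mutant call depended on the setting. It was lost with the replicate number as a block, with no filter on low values, without the male-transcript libraries and without mutant young replicate 1 or 2 or mutant old replicate 1, 2 or 3, with adjusted p from 0.055 to 0.097 and changes from -0.26 to -0.31. Its partner ATPsynbeta fell by 0.50 in wild type and 0.59 in mutants on the log2 scale. The other 7 subunits fell by between 0.31 (ATPsyndelta) and 0.62 (ATPsynO, the stalk protein that links stator and head) in wild type, and by between 0.39 (ATPsynCF6) and 0.67 (ATPsynO) in mutants.

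**Figure D3:**
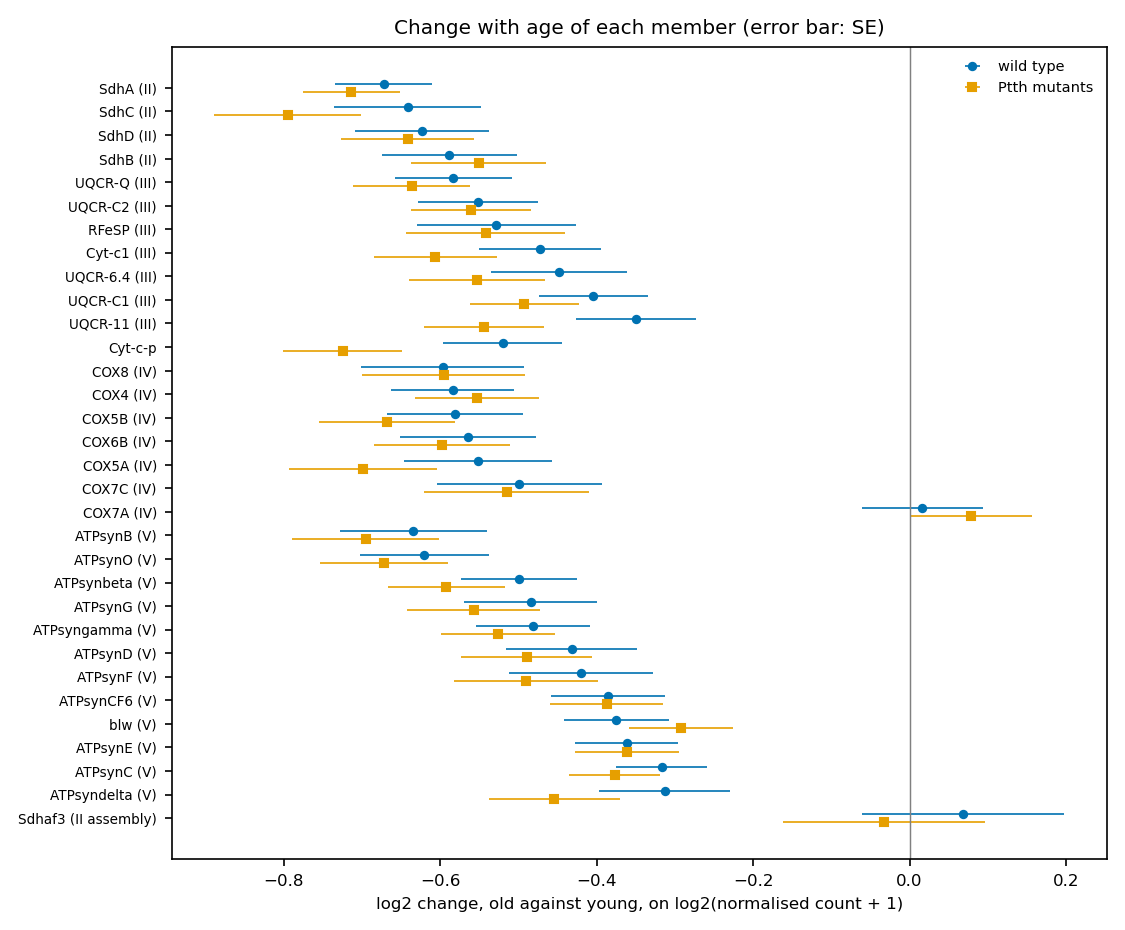
The x axis gives the change of each of the 32 genes from young to old flies on the log2(normalised count + 1) scale, in wild type (circles) and Ptth mutants (squares), with bars of 1 SE and genes ordered within complexes. Of the 32 genes, 30 lie between -0.29 and -0.80 in both genotypes, and COX7A and Sdhaf3 lie near 0.

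The second question was whether Ptth mutants differed from wild type in these genes. At the young age 30 of 32 genes had higher means in mutants, with a median difference of 0.13 beside -0.03 over all tested genes. With the threshold of the study for genotype, an adjusted p under 0.05 and a change over 1.5-fold, 0 of 32 were called (4.81% of all genes) by limma, by edgeR and by DESeq2. At an adjusted p alone limma called 1 gene, UQCR-11, where 3.3% of all genes were higher in mutants, edgeR called 0 and DESeq2 4. At an unadjusted p under 0.05 the tools gave 10, 4 and 9 genes. The genotypes did not overlap for 10 of 32 genes, higher in mutants, against 11.6% of all genes. Those 10 were UQCR-11, UQCR-6.4, UQCR-C1, Cyt-c1, Cyt-c-p, COX5B, ATPsynC, ATPsynO, ATPsyndelta and ATPsyngamma. Marker lists of other tissues moved in the same comparison. Of the ovary germline genes 17 of 19 had higher means in mutants (median 0.26), 8 without overlap, and 3 passed an adjusted p under 0.05. Muscle genes were lower in 25 of 30 (median -0.24), 9 without overlap (13.7% of all genes) and 2 past the test (5.53%), and photoreceptor and neuron genes in 21 of 22 (median -0.30), 5 without overlap and 2 past the test. Without the male-transcript libraries the medians of these lists were 0.13, -0.03 and -0.09, and their part in the difference of the respiratory genes was not tested.

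UQCR-11 was higher in all 3 young mutant libraries than in any young wild type library, by 0.27 ± 0.08, adjusted p = 0.047. The call rested on the setting. It was lost with edgeR, with TMM or quantile scaling, without a filter on low values, with the young groups fitted alone, with the replicate block, without the male-transcript libraries, and without wild type young replicate 1 or 2 or mutant young replicate 1 or 3. COX5B followed with 0.27 ± 0.09, adjusted p = 0.068, a value that passed with DESeq2 (adjusted p = 0.024) and not with edgeR (0.12). Its young groups did not overlap. Sdhaf3 had the largest difference, 0.29 ± 0.13, adjusted p = 0.15, and its groups overlapped, since wild type young replicate 3 stood above mutant replicates 1 and 2. It was 0.03 without the male-transcript libraries, 0.63 with quantile scaling (adjusted p = 0.12), and 0.43 without wild type young replicate 3, where it passed (adjusted p = 0.013). The smallest differences were those of blw (0.01 ± 0.07, adjusted p = 0.95, 95% interval -0.14 to 0.15) and COX7A (-0.03 ± 0.08, adjusted p = 0.78, -0.20 to 0.14), both with overlapping groups. Complex II showed the lowest median, 0.03, and complex III the highest, 0.17. Over the 32 genes the 95% intervals had a median half-width of 0.18 and none reached beyond -0.23 or 0.57, so the data bound rather than exclude a difference. Without the male-transcript libraries all 32 values were above 0 with a median of 0.22. That comparison rests on a single young wild type library, replicate 3, which was the lowest of its group for 29 of 32 genes.

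None of the old libraries held male transcripts. In them 28 of 32 genes had higher means in mutants with a median difference of 0.07, beside 0.00 over all genes. No gene was called by limma, edgeR or DESeq2 at an adjusted p alone (2.03% of all genes were higher in mutants) or with the fold threshold (4.17%). At an unadjusted p under 0.05 the tools gave 0, 0 and 1. The genotypes did not overlap for 1 gene, UQCR-Q, against 11.5% of all genes. In the same comparison 22 of 22 photoreceptor and neuron genes had lower means in mutants (median -0.24), 11 without overlap (14.9% of all genes), though limma called 0 at an adjusted p alone (3.67%) and 9 had an unadjusted p under 0.05. Of the yolk and eggshell genes 13 of 16 had higher means in mutants (median 0.30) and 3 passed, and of the ovary germline genes 17 of 19 (median 0.13) and 1 passed. The part of these lists was not tested here either. COX5B had the largest difference at 0.19 ± 0.09, adjusted p = 0.31, and old wild type replicate 1 lay above mutant replicate 3. Sdhaf3 (0.19 ± 0.13, adjusted p = 0.57) and RFeSP (0.15 ± 0.10, adjusted p = 0.57) followed, both with overlapping groups. SdhA (-0.00 ± 0.06, adjusted p = 1, 95% interval -0.14 to 0.13) and SdhB (-0.01 ± 0.09, adjusted p = 0.999, -0.20 to 0.18) had the smallest differences. For all 32 genes the intervals lay between -0.24 and 0.47.

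**Figure D4:**
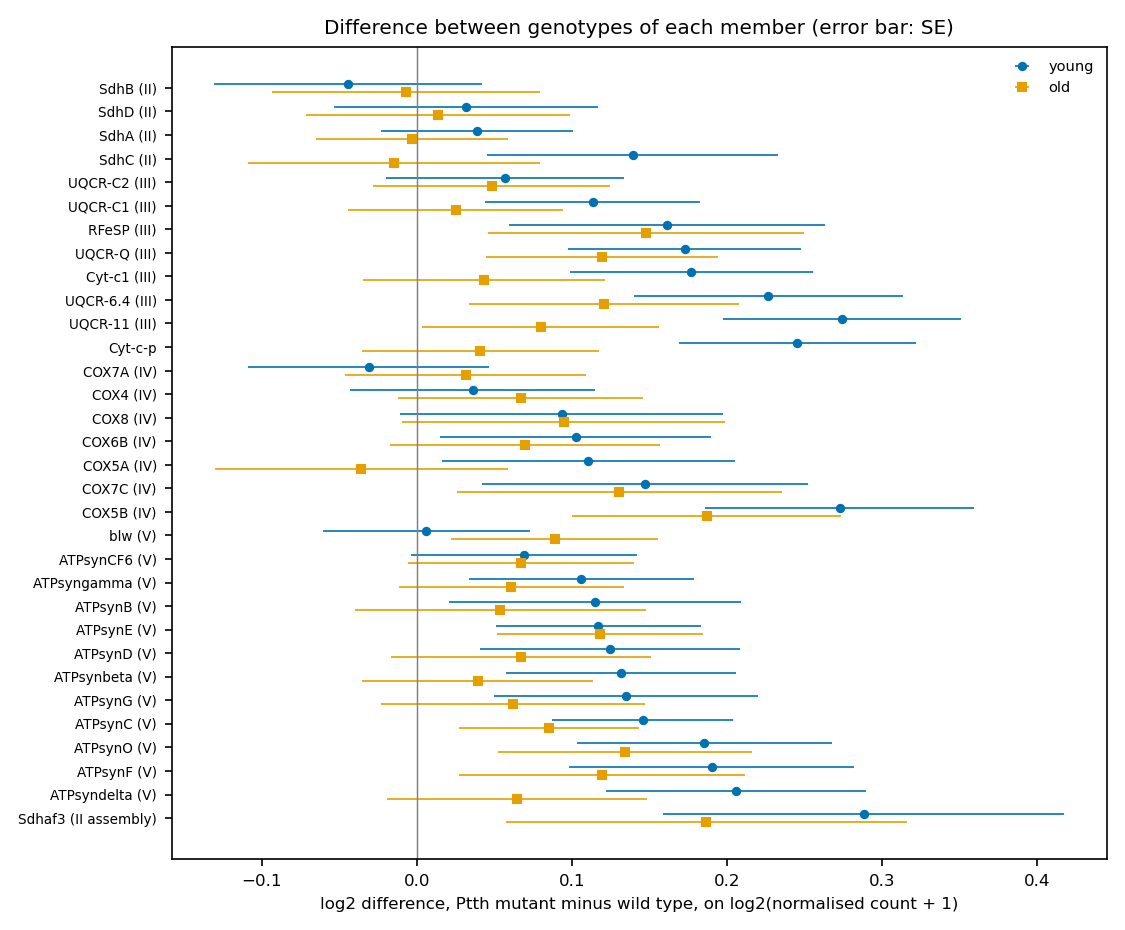
The x axis gives Ptth mutants minus wild type for each of the 32 genes on the log2(normalised count + 1) scale, at the young age (circles) and the old age (squares), with bars of 1 SE. Most values lie above 0, with medians of 0.13 and 0.07, and 1 gene, UQCR-11 at the young age, passed an adjusted p under 0.05.

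The interaction asked whether the change with age differed between genotypes. None of the 32 genes was called by limma, edgeR or DESeq2, at an adjusted p under 0.05 with no threshold on the fold (0.158% of all genes), and none had an unadjusted p under 0.05. The median was -0.06, beside -0.01 over all genes, and 26 of 32 values were below 0. Without the male-transcript libraries the median was -0.13, with 30 of 32 values below 0. That fit rests on a single young wild type library. Cyt-c-p (-0.20 ± 0.11, adjusted p = 0.78, 95% interval -0.44 to 0.03), UQCR-11 (-0.19 ± 0.11, adjusted p = 0.78, -0.43 to 0.04) and SdhC (-0.15 ± 0.13, adjusted p = 0.78, -0.44 to 0.14) had the largest values. For these 3 genes the fall in mutants was the larger, by an amount within the error. ATPsynE (0.00 ± 0.09, adjusted p = 0.998, -0.20 to 0.21) and COX8 (0.00 ± 0.15, adjusted p = 0.998, -0.32 to 0.32) had the smallest. A larger or smaller fall in mutants was not detectable at this depth and replicate number.

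Neighbouring parts of the pathway are described by counts and medians. Of 33 complex I subunits outside the paralogs, 27 fell with age in wild type and 27 in mutants at an adjusted p under 0.05, with medians of -0.39 and -0.41. The shares of all tested genes, 5.73% in wild type and 3.35% in mutants, are the background for this and the next 3 lists. One of them, ND-B8, was called with the fold threshold and was chosen here after its values were seen. It had 169.6, 179.5 and 122.8 in wild type and 251.1, 197 and 252 in mutants when young, and 0 to 11.96 in the 6 old libraries, with log2 changes of -5.97 (adjusted p = 2.4e-04) and -5.99 (adjusted p = 3.1e-04). The other complex I subunits moved far less. Of 21 listed subunits and assembly factors of complexes II to V under other symbols, 16 were found and 15 tested, and 6 fell in each genotype (medians -0.39 and -0.39). These 6 were the subunits cype, levy, CG7630, ox and sun, with changes of -0.39 to -0.70, and CG34172. CG34172 went from 510.9 to 995.9 in the 6 young libraries to 71.56 to 152.5 in the 6 old ones (wild type -2.87, adjusted p = 1.1e-06; mutants -2.69, adjusted p = 2.9e-06). The assembly factors Surf1 (wild type 0.26, adjusted p = 0.16; mutants -0.08, adjusted p = 0.80) and Scox (0.19, adjusted p = 0.13, and -0.02, adjusted p = 0.92) did not pass.

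The citric acid cycle list, with 20 of 29 genes found and 19 tested, had 10 genes lower with age in each genotype, with medians of -0.30 and -0.28. Citrate synthase kdn fell by 0.50 in wild type and 0.43 in mutants, and Nc73EF, a subunit of the 2-oxoglutarate dehydrogenase, by 0.94 and 0.73. Pdk, the kinase that inhibits pyruvate dehydrogenase, rose in both (0.33, adjusted p = 0.0054, and 0.38, adjusted p = 0.0028), and Idh rose in mutants (0.33, adjusted p = 0.013). Of 16 tested regulators of mitochondrial biogenesis and import, 1 fell in wild type and 2 in mutants, where 5.73% and 3.35% of all tested genes did. Their medians were 0.01 and -0.07. The wild type count was near its background, and the mutant count rested on 2 genes. The genes that fell were the ADP/ATP carrier sesB in both (-0.52, adjusted p = 0.0020, and -0.56, adjusted p = 0.0014) and the outer membrane channel porin in mutants (-0.23, adjusted p = 0.025). The mitochondrial transcription factor TFAM (0.00, adjusted p = 0.99, and -0.09, adjusted p = 0.74) and the coactivator srl (0.11, adjusted p = 0.59, and -0.07, adjusted p = 0.88) did not pass. Without the male-transcript libraries, 2 complex I genes, 4 of the citric acid cycle, 1 of the other subunits and 0 of the biogenesis list passed as lower in wild type, where 2.03% of all genes did, so the wild type call of sesB was lost. In mutants these counts were 21, 9, 6 and 1 (3.6% of all genes).

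Most of the paralogs ending in L followed male transcripts, and 9 of the 12 were higher in each of the 3 libraries that held them than in any other. Many duplicated nuclear genes of the fly respiratory chain are expressed mainly in testis. The 12 paralogs summed to 300.2, 1049 and 268.7 in wild type young replicates 1 and 2 and mutant young replicate 1, and to 25.5 to 55.6 in the other 9 libraries. The 3 libraries were those that held the male tract transcripts. Over both genotypes the main set did not split this way: its library medians were 0.22, 0.26 and 0.36 in the 3 libraries and 0.12, 0.22 and 0.41 in the other young ones. Within young wild type, however, both libraries with male transcripts, at 0.22 and 0.26, lay above the library without, at 0.12. In young mutants the library with them, at 0.36, lay between the others. Because 7 paralogs passed the filter through these libraries alone or with them, no test over the paralogs is given.

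SdhBL, the paralog of the iron-sulphur subunit, was the most abundant by count. It had 91.5, 319.8 and 0.982 in wild type and 81.1, 0.879 and 0 in mutants when young, and 4.78, 4.77 and 3.97 and 3.72, 1.99 and 4.04 when old, and reached 5.42% of SdhB. COX4L had 64.7, 192 and 7.86 in wild type and 47.9, 4.4 and 9.15 in mutants when young, and 4.78, 5.73 and 10.6 and 6.51, 3.99 and 3.23 when old. SdhAL had 22, 119 and 0, 26.4, 0.879 and 0, 0, 1.91 and 0 and 0.931, 0.996 and 1.61 in the same groups. All 3 genes were higher in each male-transcript library than in any other. COX7AL (chromosome 3R, 8343669 to 8344310), which lies close to COX7A, had 28.1, 96.5 and 0.982 in wild type and 27.4, 1.76 and 1.02 in mutants when young, and 0, 0.954 and 0 and 0.931, 0.996 and 2.42 when old. Its share of the COX7A count was at most 2.57%. ATPsynCF6L had 14.6, 59.8 and 0.982 in wild type and 13.7, 0 and 0 in mutants when young, and 0 in the 6 old libraries. ATPsynbetaL had 6.1, 49.5 and 0 in wild type and 15.6, 1.76 and 0 in mutants when young, and 1.19, 0 and 2.65 and 0.931, 0 and 0 when old. These, too, separated the 3 libraries from the rest.

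ATPsynGL and UQCR-14L had no read in any of the 9 other libraries, where 3 reads would be a normalised count of 2.42 to 3.97. ATPsynGL had 13.4, 64.6 and 8.79 in wild type young replicates 1 and 2 and mutant young replicate 1, and UQCR-14L had 8.54, 33.5 and 7.82. The remaining paralogs had counts in libraries without male transcripts as well. COX6AL had 22, 75.8 and 7.86 in wild type and 14.7, 12.3 and 10.2 in mutants when young, and 15.5, 5.73 and 17.2 and 8.38, 12 and 12.1 when old. UQCR-11L had 23.2, 35.9 and 5.89, 14.7, 10.6 and 7.11, 2.39, 6.68 and 14.6 and 11.2, 13 and 6.46 in the same order. COX6AL overlapped between the 2 kinds of library, and UQCR-11L nearly did, with 14.7 as the lowest value with male transcripts and 14.6 as the highest without. ATPsynepsilonL had 6.1, 2.39 and 0.982 in wild type and 10.7, 4.4 and 5.08 in mutants when young, and 0, 4.77 and 6.62 and 2.79, 7.97 and 2.42 when old, and did not follow the male transcripts.

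**Figure D5:**
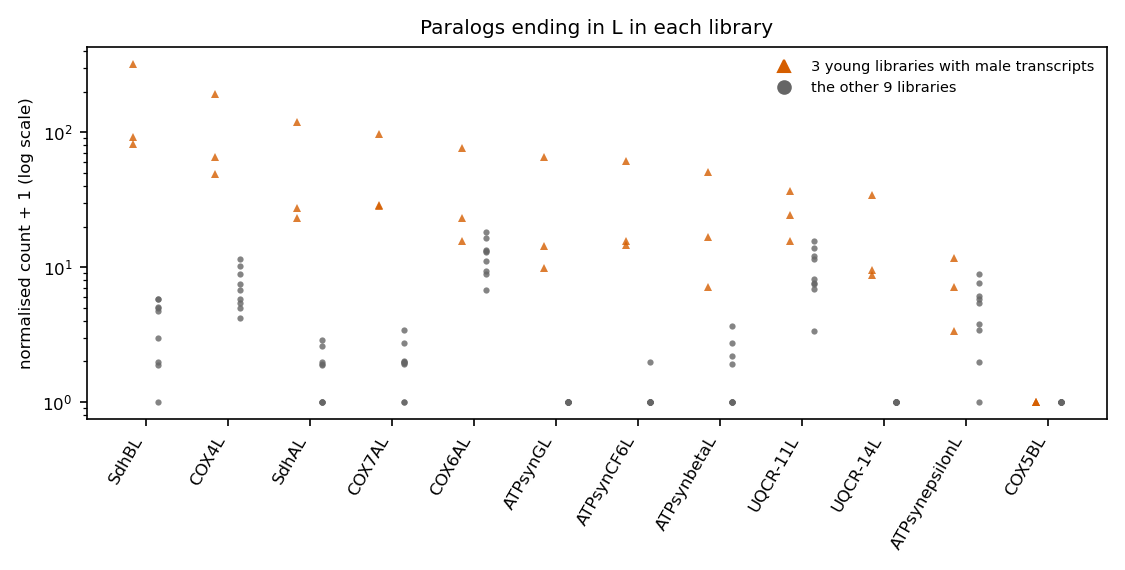
Each point is a paralog in 1 library, as normalised count + 1 on a log axis, with triangles for the 3 young libraries that held male transcripts and circles for the other 9. SdhBL reaches 320 in a male-transcript library and at most 4.78 in the others, whereas ATPsynepsilonL overlaps and COX5BL is at 0 in all 12.

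A count of 0 for 2 symbols of the rule could not be read as absence. UQCR-14 (chromosome X, 16286288 to 16286988, plus strand), a subunit of complex III, was at 0 in all 12 libraries, and all 523 of its exon bases are shared with CG32576 on the minus strand in the BDGP6.54 annotation. COX5BL (chromosome 2L, 6559431 to 6560133), which lies next to COX5B, was also at 0 throughout, with all 647 exon bases shared with Trmt6 on the other strand. Of all protein-coding genes, 68 of 69 whose exons lie fully within genes of the other strand were at 0 in all 12 libraries (98.6%), against 149 of 3719 that share some bases (4.01%) and 550 of 10110 that share none (5.44%). The strand setting of the counting step was not stated in the labels or the paper. UQCR-6.4, with 227 of 561 exon bases shared, ATPsyndelta and, with fewer, RFeSP, SdhB, SdhD, COX7C and ATPsynbeta also share exon bases with the other strand, and the effect on their counts was not tested.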

How the data were processed

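RNA-seq of whole female flies covered 12 libraries in 4 groups of 3. Per the labels and their processing notes, alignment was run by the authors in STAR 2.7.3a on BDGP6, and reads were assigned to genes with HTSeq 0.11.2 and scaled with DESeq2 1.20.0. What was deposited is a signal in normalised counts, each library having its own size factor. All values (100%) were whole multiples of a library step (0.798 to 1.32) within 0.01 of a read. The step of mutant old replicate 2, 0.996, was close to 1. The recovered reads served the alternatives. The strand setting of HTSeq was not stated. Both library preparations in the labels are listed for each sample, so their effect could not be tested.

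Genes with at least 10 normalised counts in at least 3 libraries (11403) were tested on log2(value + 1) in limma 3.58.1 (R 4.3.3, all 12 libraries, eBayes with trend, two-sided, Benjamini-Hochberg), called at an adjusted p under 0.05 with a fold over 1.5 (genotype), over 2 (age) or with no fold threshold (interaction). The pseudocount understates changes of low genes. Alternatives were edgeR 4.0.16, DESeq2 1.42.0, TMM and quantile scaling, other pseudocounts and filters, only the groups compared, a replicate block, the libraries with male transcripts left out and each library left out. The count at an adjusted p alone under those alternatives was added after the data were seen. The procedure was tested on simulated counts drawn independently for each gene. That test does not cover shifts shared by genes within a library, which the members showed. Exon lengths and positions came from the BDGP6.54 annotation, which held 17622 of 17714 symbols.

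Members and gene lists were chosen with earlier results of these data known. Values per library are given for the 3 largest and 2 smallest changes in each comparison, the highest gene per kilobase of each complex and all paralogs above 0. The libraries are called biological replicates, but separate cultures are not stated, so the p-values reflect library-to-library spread, which may be technical.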

Additional observations from a re-analysis of the deposited data

How the results depend on the processing

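Medians of the 32 genes kept their sign in each of the 5 comparisons under the alternatives run, apart from a single left-out library in the interaction, where it reached 0.00. Leaving out libraries gave 0.08 to 0.17 for genotype at the young age, 0.01 to 0.12 at the old age, -0.56 to -0.44 for age in wild type, -0.61 to -0.51 for age in mutants and -0.11 to 0.00 for the interaction. The median for age in wild type moved most without the male-transcript libraries, to -0.39. In that setting the medians were 0.22 for genotype at the young age and -0.13 for the interaction. Both lay outside the ranges for a single left-out library. With no fold threshold the count of genes called went from 0 to 1 for genotype at the young age and from 0 to 30 for age in wild type and in mutants. At an adjusted p alone the 1 gene called for genotype at the young age became 0 with TMM or quantile scaling, with edgeR, with no filter, with only the groups compared, with the replicate block and without the male-transcript libraries, 4 with DESeq2, and 0 to 2 when a library was left out. The 30 genes for age in wild type became 9 without the male-transcript libraries, 24 with only the groups compared and 27 to 30 when a library was left out, and the 30 in mutants 28 to 29. With the replicate block both age counts were 29. Deviations of same-numbered libraries correlated at 0.825, -0.87 and 0.879 for replicates 1 to 3 between the young genotypes and at -0.269 to 0.179 elsewhere. Young replicate 1 held male transcripts in both genotypes, replicate 2 in wild type only and replicate 3 in neither. The signs differed between replicates, so the numbers were not taken to pair the libraries. Scaling moved the median of all genes by under 0.1 on the log2 scale. Of single-gene values tested under the alternatives, 315 kept their side of the threshold, 21 lost it and 2 gained it. With 3 libraries a group, the median half-width of the 95% intervals was 0.18 for the genotype and age comparisons and 0.26 for the interaction. For a gene with intervals of that width, a smaller difference in log2 was not resolved. Some genes had narrower intervals, such as ATPsynC for genotype at the young age, with 0.15 and an interval of 0.02 to 0.27. Its adjusted p in limma was 0.11. Larger differences could still miss an adjusted p under 0.05, as COX5B did at the young age with 0.27.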
